A study of Mus musculus with 8 samples.

Results

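Small intestinal organoids given 6 Gy of X-rays were compared with untreated organoids at day 7, the later of the 2 collection days of the study. Organoids are cultures of intestinal epithelial cells that grow in a gel and hold stem cells and their differentiated progeny. The comparison was defined by the labels alone: the 2 irradiated and the 2 control libraries of day 7, 4 of the 8 libraries of the series, were fitted by themselves, and all 13041 genes that passed a filter on low counts, of 55416 in the table, were described. Every group, irradiated or not and at either day, came from C57BL/6 mice aged 4 to 8 weeks that were homozygous (Tg/Tg) for Rosa26-rtTA, a tetracycline-dependent activator, and also homozygous (Tg/Tg) for Col1A1-TetO-OSKM, a cassette of the 4 reprogramming factors that needs an inducer. No inducer is named in the labels of these samples. The starting point of the days is not in the labels, nor is it stated whether the 2 libraries of a group came from separate cultures or mice, so that p-values measure the spread between these libraries, which may be technical. The same comparison at day 4, with its own 2 control and 2 irradiated libraries, was used only to show which day 7 differences were already there.

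Ionizing radiation breaks DNA and activates p53, which induces inhibitors of the cell cycle and mediators of apoptosis. In the intestine, dividing crypt cells and Lgr5-expressing stem cells are the most sensitive, and the surviving epithelium is known to pass through a regenerative state that shares genes with the fetal gut before crypts are rebuilt. A pair of further programs described here is controlled by the stability of a transcription factor. The HIF factors are degraded through prolyl hydroxylation when oxygen is plentiful and otherwise activate glycolysis and adaptation to low oxygen. NRF2 is degraded through KEAP1 until electrophiles or oxidants release it, and it then activates enzymes of glutathione synthesis and detoxification.

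Promoter sequences are shown for genes of these programs because their members moved together (values follow). Each is the 250 bases before the annotated start site in RefSeq, build GRCm38.p6, read 5′ to 3′ on the gene's strand. The deposited tables hold no coordinates, and the submitters' notes name builds GRCm39 and mm10, so the sequences are a reference and no measurement was made on them. For 5 genes that fell, all of them members of the hypoxia and glycolysis list, capitals mark the core of the hypoxia response element, searched as ACGTG and as GCGTG on both strands. The palindrome CACGTG counts on both strands, and neighbouring matches may overlap.
Bnip3 (chr7:138909507-138909756, minus strand): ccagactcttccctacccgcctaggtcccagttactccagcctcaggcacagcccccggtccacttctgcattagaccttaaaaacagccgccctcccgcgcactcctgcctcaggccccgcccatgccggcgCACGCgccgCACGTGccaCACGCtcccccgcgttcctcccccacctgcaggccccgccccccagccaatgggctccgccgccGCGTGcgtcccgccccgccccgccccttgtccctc
P4ha2 (chr11:54100674-54100923, plus strand): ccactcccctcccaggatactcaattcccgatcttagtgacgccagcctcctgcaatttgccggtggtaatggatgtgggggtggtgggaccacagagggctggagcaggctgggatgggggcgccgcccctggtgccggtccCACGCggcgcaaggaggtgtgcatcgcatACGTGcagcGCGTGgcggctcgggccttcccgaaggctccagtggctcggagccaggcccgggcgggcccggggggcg
P4ha1 (chr10:59323046-59323295, plus strand): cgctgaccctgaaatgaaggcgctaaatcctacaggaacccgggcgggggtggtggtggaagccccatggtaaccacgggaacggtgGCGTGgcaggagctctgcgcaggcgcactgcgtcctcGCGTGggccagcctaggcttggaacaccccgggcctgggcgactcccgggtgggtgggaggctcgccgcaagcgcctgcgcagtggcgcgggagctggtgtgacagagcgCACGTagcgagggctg
Pgk1 (chrX:106186850-106187099, plus strand): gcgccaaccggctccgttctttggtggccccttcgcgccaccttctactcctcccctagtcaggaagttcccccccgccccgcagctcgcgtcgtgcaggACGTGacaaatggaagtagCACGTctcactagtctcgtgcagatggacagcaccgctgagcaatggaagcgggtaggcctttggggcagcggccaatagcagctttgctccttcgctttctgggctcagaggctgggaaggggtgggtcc
Egln3 (chr12:54203875-54204124, minus strand): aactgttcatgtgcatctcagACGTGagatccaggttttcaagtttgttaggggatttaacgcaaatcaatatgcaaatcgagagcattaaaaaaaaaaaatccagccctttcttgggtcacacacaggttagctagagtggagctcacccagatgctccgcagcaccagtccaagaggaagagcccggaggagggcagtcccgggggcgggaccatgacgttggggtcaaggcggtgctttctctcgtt
For 2 genes that rose, both members of the NRF2 list, capitals mark the core of the antioxidant response element, searched as TGACNNNGC on both strands.
Ugdh (chr5:65435843-65436092, minus strand): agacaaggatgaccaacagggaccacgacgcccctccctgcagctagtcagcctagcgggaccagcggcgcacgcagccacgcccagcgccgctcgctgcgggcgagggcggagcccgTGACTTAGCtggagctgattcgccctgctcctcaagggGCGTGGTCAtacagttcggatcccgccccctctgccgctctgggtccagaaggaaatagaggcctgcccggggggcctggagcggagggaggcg
Prdx1 (chr4:116685349-116685598, plus strand): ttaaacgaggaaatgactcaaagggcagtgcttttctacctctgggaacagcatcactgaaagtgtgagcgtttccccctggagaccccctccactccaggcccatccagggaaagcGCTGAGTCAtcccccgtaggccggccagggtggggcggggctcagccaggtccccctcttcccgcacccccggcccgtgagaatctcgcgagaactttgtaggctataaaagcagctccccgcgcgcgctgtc
ACGTG was found in 13 of the 26 promoters of the hypoxia and glycolysis list that the table holds (50%), in 22.1% of the 9498 promoters of tested genes and in 16.6% of all 27025. GCGTG was found in 14 of the 26 (53.8%), against 46.1% of tested genes and 28.2% of all, and in 9 of the 16 promoters of the NRF2 list (56.3%), which hold ACGTG in 1 case (6.25%). TGACNNNGC was found in 5 of the 16 promoters of the NRF2 list (31.3%), against 12% of tested genes and 10.1% of all. The windows of Nqo1 and Cbr3, both on that list, hold no match. Those of Aldoa, Gpi1, Hk1, Pkm, Tpi1 and Vegfa, on the hypoxia and glycolysis list, hold neither ACGTG nor GCGTG. Every window printed above is one that holds a match. A match is a run of letters and not a measured binding site.

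The 4 libraries held 9119782 and 10538914 expected counts in controls and 8947441 and 7541764 after irradiation, and a single count was worth between 0.0949 and 0.133 CPM, that is, counts scaled to the size of the library. Levels are given below as CPM with TMM-scaled library sizes (trimmed means of log ratios), in the order replicate 1 and replicate 2. Mitochondrially encoded transcripts made up 16.0% and 16.1% of all counts in controls, against 14.03% and 12.9% in irradiated libraries. The epithelial label held: the summed level of the 10 epithelial markers was 5019 and 5012 CPM in controls and 6527 and 6661 CPM after irradiation, with 6 of them higher and 0 lower (7 and 2 after the length and GC correction described below). None of the markers of other cell types passed the test in the main fit, and with both corrections Ret, at 0.35 (adjusted p = 0.0296), did; it is named after its value was seen. Mesenchymal markers summed to 6.29 and 7.06 CPM in controls and 5.55 and 5.48 CPM after irradiation, immune markers to 8.58 and 9.51 against 10.2 and 11.6 CPM, endothelial markers to 1.95 and 3.04 against 3.05 and 2.55 CPM, and enteric neuron and glia markers, mostly Ret, to 22.4 and 21.3 against 23.2 and 27.3 CPM. Of the 13, 13, 9 and 9 markers in these lists, 3, 6, 4 and 3 had 0 counts in all 4 libraries, among them Col3a1 and Thy1 of mesenchyme, Cd3e and Adgre1 of immune cells, Cdh5 and Kdr of endothelium, and Sox10 of neurons and glia.

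At day 7 the irradiated organoids differed from controls in many genes by small amounts, and in a smaller number by large ones. Of the 13041 genes, 4732 (36.3%) were called at an adjusted p under 0.05, with 2448 higher (18.8%) and 2284 lower (17.5%). Among the calls, 3352 (70.8%) changed less than 1.5-fold, and the median absolute log2 fold change was 0.39. At least 2-fold changes were found for 378 genes that rose (2.9%) and 269 that fell (2.06%). The replicates lay close together, with a biological coefficient of variation of 0.0438, against 0.154 at day 4, and the 2 groups did not overlap for 67.3% of all genes tested. With 2 libraries a group the fit has 2 residual degrees of freedom, beside a median of 30.1 prior ones that come from the spread over all genes. The small p-values of single genes therefore rest mostly on that shared spread and less on a gene's own replicates. The number of calls depended on the test: DESeq2 called 2069 genes, and a fit of all 8 libraries, in which the wider spread of day 4 is shared, called 1216. The split also moved with the scaling. On the log2(TPM + 1) scale of the deposited TPM values, 1934 genes were higher and 373 lower. The median gene lay 0.124 above 0 there. With that median set to 0 the calls were 933 higher and 596 lower.

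**Figure D1:**
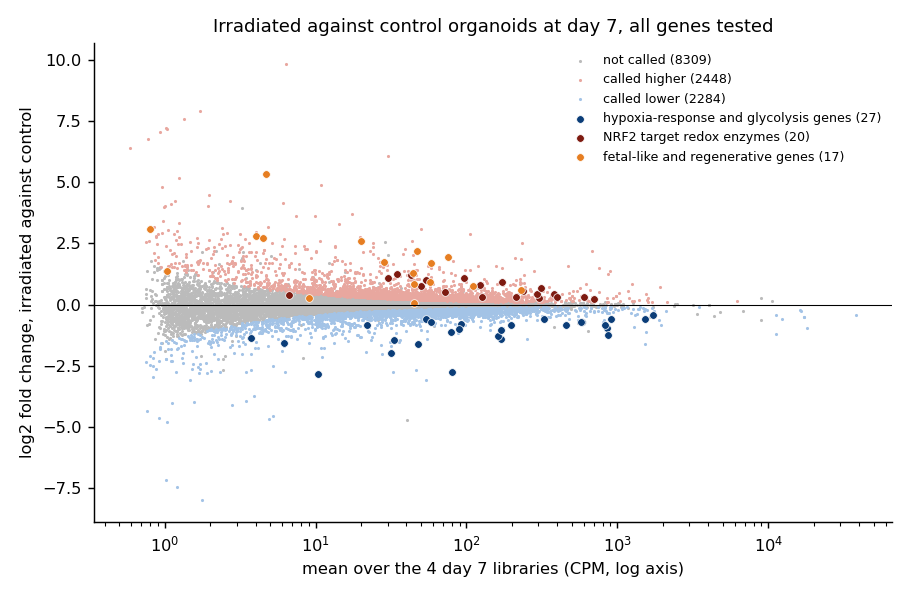
Each point is 1 of the 13041 genes tested at day 7. The x axis is the mean level over the 4 libraries on a log10 axis of CPM and the y axis the log2 fold change of irradiated over control organoids; colors mark the 2448 genes called higher and the 2284 called lower. Most calls lie near 0, and 378 rises and 269 falls pass 2-fold.

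Calls depended on the length of the gene. In 5 equal bins by length, with medians of 854, 1575, 2273, 3199 and 5038 bases, the share of genes called higher fell from 25.8% in the shortest bin to 8.01% in the longest, and the share called lower rose from 7.36% to 39.2%. The median log2 fold change went from 0.13 to -0.16 across the same bins. Across genes the rank correlation of length with the fold change was -0.29 at day 7 and -0.02 at day 4. All 4 libraries took part: relative to the mean of the 4, levels rose with length in both controls (rank correlations 0.25 and 0.27) and fell with it in both irradiated libraries (-0.26 and -0.27). Gene GC content moved with the fold change too. From the fifth of genes with the lowest GC to the fifth with the highest, the median log2 fold change went from -0.16 to 0.17, and within each of 3 equal bins of GC content long genes lay below short ones. The source of these trends was not tested.

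The trends were then removed library by library. With offsets that correct for length, 4044 genes were called, 2216 higher (17%) and 1828 lower (14%), and the calls spread evenly over the length bins (14.6% to 18.7% higher, 12.7% to 15.3% lower). With offsets for length and GC content, 3780 were called, 2095 higher (16.1%) and 1685 lower (12.9%). Of the main calls, 1856 higher and 1530 lower kept their call under the first correction and 1619 and 1297 under the second. Large changes were little touched: of the 378 rises and 269 falls of at least 2-fold, 363 and 245 were also called with the length correction, and 362 and 230 with both. Single genes of small change were touched more. Of the main calls, 118 had a fold change of opposite sign with the length correction and 263 with both. These counts do not require a call in the corrected fit. Each gene group below is therefore given in the main fit and, where a count moved by more than 1.5 times and by more than 1 gene, with both corrections.

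**Figure D2:**
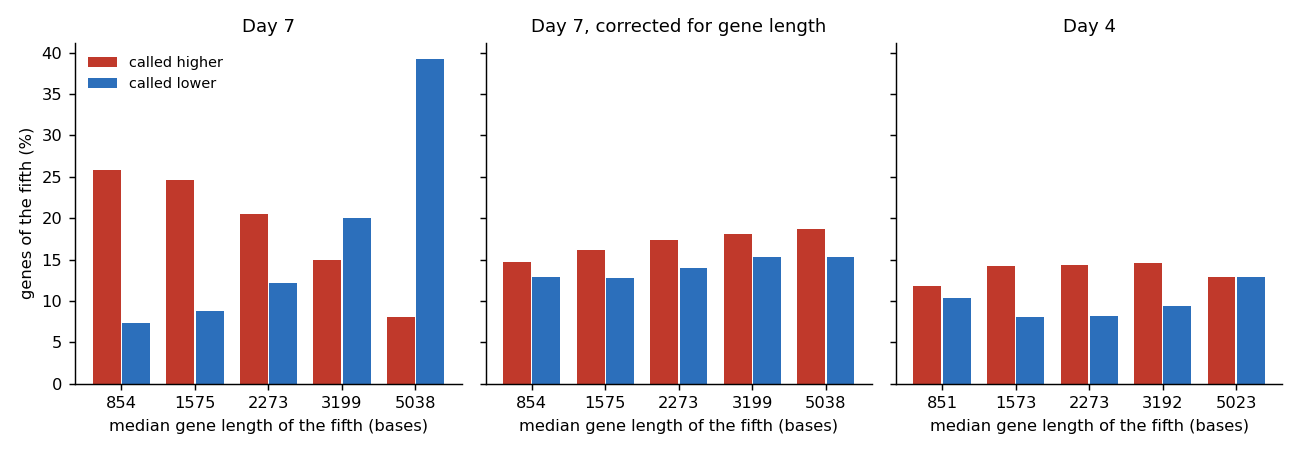
The panels show the 5 equal bins of genes by length on the x axis, from short to long with the median length in bases; the y axis is the percent of the genes in a bin that were called higher or lower at day 7. In the main fit the share lower climbs from 7.36% to 39.2%, and with the length correction it stays between 12.7% and 15.3%.

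**Figure D3:**
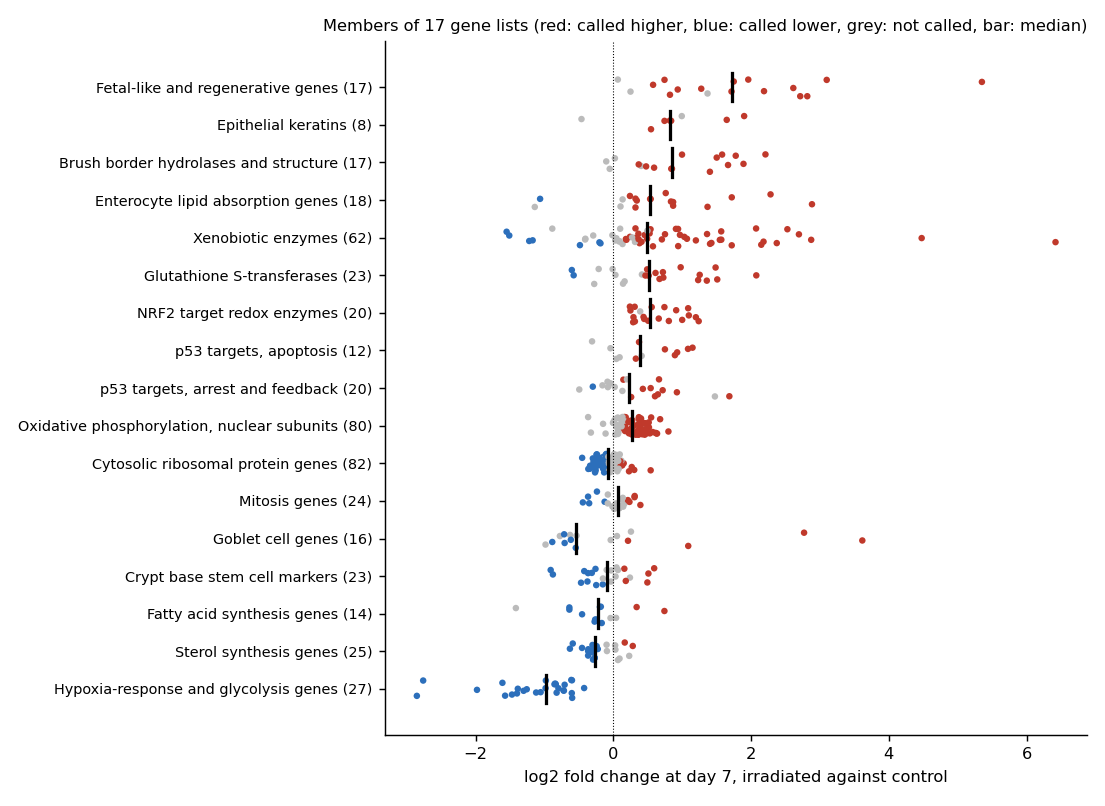
Gene lists are on the y axis and the log2 fold change of irradiated over control organoids at day 7 on the x axis, with 1 point for each tested member and a bar at the median. The hypoxia and glycolysis list lies wholly below 0 and the fetal-like, NRF2 and enterocyte lists mostly above it.

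Genes of the response to low oxygen and of glycolysis were lower in irradiated organoids. All 27 members of this list passed the filter and all fell, 12 of them at least 2-fold, with a median log2 fold change of -0.98, against a median near 0.00 over all genes tested. The count was 27 of 27 with the correction for length and GC content as well, and the median -0.95. The fit of all 8 libraries called 11 of them, and Bnip3, P4ha1 and Egln3 missed the threshold there (adjusted p = 0.0873, 0.171 and 0.299). Bnip3, a mitochondrial receptor of mitophagy, had 147 and 130.3 CPM in controls and 20.9 and 19.9 CPM after irradiation (log2 fold change -2.76, SE 0.08, adjusted p = 4.37e-23). P4ha2 and P4ha1 encode catalytic subunits of the collagen prolyl hydroxylase. P4ha2 went from 18.4 and 18.2 to 2.28 and 2.81 CPM (log2 fold change -2.85, SE 0.2, adjusted p = 1.17e-13) and P4ha1 from 49.1 and 51.7 to 13.7 and 11.7 CPM (-1.98, SE 0.11, adjusted p = 1.24e-16). In each of these genes both irradiated libraries lay far below both controls.

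Glycolytic enzymes fell from high levels. Pgk1, phosphoglycerate kinase, had 1215 and 1213 CPM in controls and 513 and 504 CPM after irradiation (log2 fold change -1.26, SE 0.039, adjusted p = 4.58e-23). Pfkl, the liver-type phosphofructokinase, went from 243 and 249 to 91.4 and 95.7 CPM (log2 fold change -1.40, adjusted p = 1.02e-21). Pkm, pyruvate kinase, went from 1827 and 1863 to 1186 and 1232 CPM (-0.61, adjusted p = 1.13e-14), and Gapdh, often used as a reference gene, from 1919 and 2006 to 1419 and 1508 CPM (-0.42, adjusted p = 2.19e-10). These abundant enzymes separated the 2 groups of libraries by a smaller fold than Bnip3 or P4ha2. Among the other members, named after their values were seen, Slc2a1, the glucose importer, fell by 0.60, Ldha, lactate dehydrogenase, by 0.84, Vegfa, the angiogenic growth factor, by 0.98 and Hk2, hexokinase, by 0.80. Pdk1, a kinase that inhibits pyruvate dehydrogenase, had 227 and 232 CPM in controls and 94.4 and 91.4 CPM after irradiation (-1.30, SE 0.049, adjusted p = 9.30e-21). Slc16a3, the lactate exporter, fell by 2.75 on the log2 scale, and Egln3, a prolyl hydroxylase that is itself a HIF target, by 1.61. Ak4, a mitochondrial adenylate kinase, fell by 3.07 and Vldlr, a lipoprotein receptor, by 1.68. In the fit of all 8 libraries Slc16a3 and Ak4 were not called (adjusted p = 0.174 and 0.132), while Vldlr was (adjusted p = 0.00955). At day 4, where 13.6% of the genes tested were higher and 9.76% lower, 7 of the 27 members tested were called lower and 0 higher, with a median of -0.96, close in size to that at day 7. Pgk1 and Pdk1 were among the calls at day 4 (-1.22 and -1.55), while Bnip3 missed the threshold with -1.89 (adjusted p = 0.255). The 2 irradiated libraries of day 4 lay apart for Bnip3 (20.1 and 81.1 CPM), P4ha1 (12.3 and 50.6 CPM) and Egln3 (25.9 and 122 CPM). The size of the day 4 change in these genes is therefore uncertain.

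**Figure D4:**
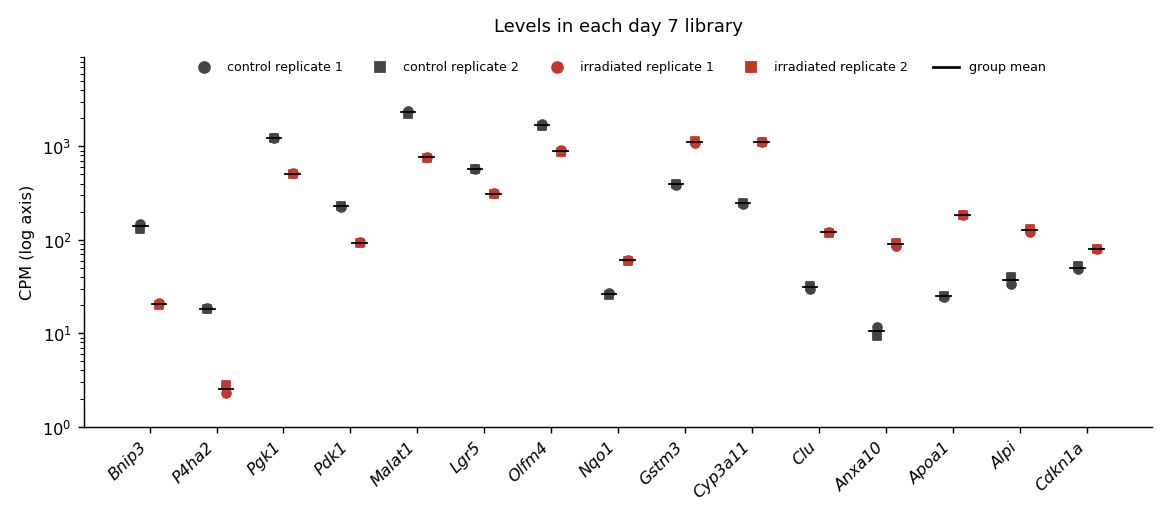
Genes are on the x axis and the day 7 level in CPM on the y axis (log scale), with 1 point for each library. Within a gene the controls are at the left and the irradiated libraries at the right. For each gene the 2 irradiated libraries lie on 1 side of the 2 controls, as for 67.3% of all genes tested.

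Redox enzymes controlled by NRF2 were higher. The list has 20 tested members, of which 19 rose and 0 fell around a median of 0.53, and the count was 19 with both corrections. Hmox1, heme oxygenase, was the member not called; it is named after its value was seen. Gclc, the catalytic subunit of the enzyme that limits glutathione synthesis, had 88.3 and 89.5 CPM in controls and 158 and 153 CPM after irradiation (log2 fold change 0.81, SE 0.052, adjusted p = 2.32e-14). Nqo1, a quinone reductase, went from 26.9 and 25.6 to 61.4 and 58.8 CPM (1.20, SE 0.085, adjusted p = 2.53e-13). Ephx1, microsomal epoxide hydrolase, went from 121 and 117 to 228 and 219 CPM (0.91, SE 0.047, adjusted p = 6.37e-17). In each of these both irradiated libraries lay above both controls. Abcc3, an exporter of conjugates, rose by 1.10 on the log2 scale, Ugdh, which makes UDP-glucuronate, by 0.66, and Slc7a11, the cystine importer, by 1.09. Among the abundant members, Prdx1, a peroxiredoxin, rose by 0.31 (0.17 with the length correction) and Tkt, transketolase, by 0.24 (0.11 with both). At the earlier day 8 of the 20 members were called higher and 0 lower. The change in Nqo1 was -0.17 there (adjusted p = 0.612), from 27.9 and 42.3 CPM in controls to 33.4 and 29.4 CPM, and the difference between the days was called (difference 1.36, adjusted p = 0.012). Cbr3, a carbonyl reductase, was -0.68 at day 4 and 1.24 at day 7 (difference 1.93, adjusted p = 0.0451, and 0.053 with the length correction). The day 4 controls of Cbr3 lay apart, at 20.7 and 43.5 CPM.

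Enzymes of conjugation and drug metabolism rose alongside. Of 23 glutathione S-transferases 14 rose and 2 fell (median 0.51), and with both corrections 14 and 4. Gsta1 went from 535 and 496 to 1217 and 1202 CPM (1.23, SE 0.041, adjusted p = 3.35e-22) and Gstm1 from 489.7 and 509.8 to 1256 and 1306 CPM (1.36, SE 0.04, adjusted p = 1.64e-23). Reads of the near-identical members of this family may be shared between genes, so single members are uncertain. Of 62 genes of cytochromes P450, carboxylesterases, glucuronyltransferases and sulfotransferases, 40 rose and 7 fell. Cyp3a11, a broad drug-metabolizing P450 of liver and gut, had 243 and 247 CPM in controls and 1124 and 1099 CPM after irradiation (2.18, SE 0.04, adjusted p = 4.43e-29), and Cyp3a13 67.2 and 70.5 CPM in controls and 403 and 391 CPM after irradiation (2.53, SE 0.049, adjusted p = 8.24e-29). Both were also higher at day 4, by 5.65 and 4.36. The falls of this list were smaller in number and held Sult1c2, a sulfotransferase, which fell by 1.51 at day 7 and changed by -1.48 at day 4.

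Genes of absorptive enterocytes were higher at day 7 in every functional group listed, with smaller medians than at day 4. In bulk RNA a larger share of cells of a type and more RNA per cell of that type cannot be told apart. Of 18 genes of lipid absorption 14 rose and 1 fell, of 12 genes of sugar digestion and uptake 9 rose and 0 fell, of 17 genes of the brush border 13 and 0, and of 12 transporters of amino acids and peptides 10 and 0. The medians were 0.54, 0.67, 0.85 and 0.49, against 1.88, 2.21, 2.24 and 1.33 at day 4. Apoa1, the apolipoprotein of HDL, had 24.7 and 25.3 CPM in controls and 186 and 184 CPM after irradiation (2.88, SE 0.065, adjusted p = 8.92e-27). Alpi, intestinal alkaline phosphatase and a marker of mature enterocytes, had 33.6 and 39.8 CPM in controls and 122 and 131 CPM after irradiation (1.78, SE 0.073, adjusted p = 1.93e-18). Slc15a1, the peptide transporter, had 2.63 and 3.33 CPM in controls and 17.2 and 19.5 CPM after irradiation (2.60, SE 0.19, adjusted p = 6.28e-13). The irradiated libraries were several fold above the controls in each of these, and each change was smaller than at day 4 by a called difference (-2.55, -2.24 and -2.51 on the log2 scale, adjusted p = 0.026, 0.0103 and 0.0352). Of all genes tested, 10.1% had a called difference between the days.

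Abundant enterocyte genes moved less. Fabp2, the intestinal fatty acid binding protein, rose by 0.87 on the log2 scale, Slc5a1, the sodium-glucose transporter, by 0.90, Sis, sucrase-isomaltase, by 0.55 and Fabp1 by 0.32 (0.20 with the length correction). Mme, the peptidase neprilysin, rose by 1.40. Enzymes that handle retinoids and fatty acids followed: 9 of 12 retinoid genes rose and 0 fell, and 14 of 21 genes of fatty acid oxidation rose and 0 fell (13 and 2 with both corrections). Rbp2, which binds retinol in the enterocyte, had 82.6 and 77.2 CPM in controls and 234 and 235 CPM after irradiation (1.56, SE 0.05, adjusted p = 1.63e-22). Aldh1a1, which makes retinoic acid, had 107 and 93.9 CPM in controls and 363 and 357 CPM after irradiation (1.84, SE 0.051, adjusted p = 3.05e-22). Creb3l3, a hepatic and intestinal transcription factor of lipid metabolism, rose by 1.60. Genes of ileal bile acid handling rested on few counts: Slc51a had 9 counts in both controls together and 48 after irradiation (ratio 5.93, counting interval 2.88 to 13.7). Of 19 transcription factors of intestinal identity 6 were higher and 2 lower (7 and 4 with both corrections, beside 16.1% and 12.9% of all genes), none of them by as much as 2-fold in the main fit, and the median was 0.07. Hnf4a, a main regulator of enterocyte genes, was at 0.07 (adjusted p = 0.136).

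Genes of the fetal-like state were still raised at day 7. Of the 22 listed, 17 passed the filter, 14 rose and 0 fell (median 1.72), and the counts were 14 and 0 with both corrections. The filter needs counts in only 1 group, so that the members that passed are not a fair sample of the list. Clu, clusterin, which marks the revival stem cells seen after injury, had 29.98 and 31.8 CPM in controls and 121 and 119.5 CPM after irradiation (log2 fold change 1.96, SE 0.069, adjusted p = 1.68e-21, and adjusted p = 0.112 in the fit of all 8 libraries). Anxa1, annexin A1, had 27.5 and 26.5 CPM in controls and 88.3 and 88.8 CPM after irradiation (1.72, SE 0.076, adjusted p = 9.16e-19), and Il1rn, the interleukin 1 receptor antagonist, 6.29 and 5.0005 CPM in controls and 35.7 and 32.9 CPM after irradiation (2.61, SE 0.14, adjusted p = 7.96e-17). In these genes the 2 irradiated libraries lay close together and well above both controls. Msln, mesothelin, rose by 2.19. Ly6a (Sca-1), another marker of this state, had 8.93 and 7.65 CPM in controls and 9.35 and 10.3 CPM after irradiation and was not called (0.25, adjusted p = 0.294). At day 4 its change had been 3.73 (adjusted p = 0.00479), and the difference between the days was called (-3.49, adjusted p = 0.00956). The day 4 changes of Clu and Anxa1, 4.22 and 4.36, did not pass the test there (adjusted p = 0.077 and 0.0776), where the replicates lay further apart.

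Single genes better known from stomach epithelium rose as well. Of the 20 listed only 6 passed the filter, of which 4 rose and 0 fell. Ctse and Psca passed through their counts after irradiation alone, so the count says nothing of the list. Ctse, the gastric protease cathepsin E, had 12 counts in both controls together and 195 after irradiation (ratio 18.1, counting interval 10.1 to 35.6). Anxa10, an annexin of gastric mucosa, had 11.6 and 9.41 CPM in controls and 86.8 and 92.2 CPM after irradiation (3.10, SE 0.098, adjusted p = 8.30e-23). Psca, prostate stem cell antigen, had 4 and 156 counts (ratio 43.4, counting interval 16.6 to 161). All 3 were also called higher at day 4, by 5.09, 6.27 and 7.84 on the log2 scale. Among targets of YAP, a coactivator that responds to tissue damage and stretch, 6 of 15 rose and 2 fell, and with both corrections 6 and 2. These and the next counts stand beside 18.8% higher and 17.5% lower over all genes tested, and 16.1% and 12.9% with both corrections. F3, tissue factor, rose by 2.28 and Areg, amphiregulin, an EGF receptor ligand, by 1.56, while Ccn1, a standard YAP target, was at -0.13 (adjusted p = 0.146). Of 8 keratins 6 rose and 0 fell, with Krt20, a keratin of differentiated cells, at 1.90 and Krt19 at 0.84. Of 11 genes of laminin-332 and epithelial integrins 4 rose and 3 fell (6 and 1 with both corrections). Lama3, a chain of that laminin, rose by 2.41. Cldn4, a claudin of tight junctions, rose by 1.34.

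Targets of p53 were partly raised. Of 20 genes of cell cycle arrest and feedback 10 rose and 1 fell, and of 12 genes of apoptosis 7 rose and 0 fell. At day 4 the counts were 13 and 1 and 7 and 0. Cdkn1a, the p21 inhibitor of cyclin-dependent kinases, had 48.2 and 52.5 CPM in controls and 80.4 and 79.3 CPM after irradiation (log2 fold change 0.66, SE 0.069, adjusted p = 2.09e-09). Its change was smaller than the 1.78 of day 4 (difference -1.12, adjusted p = 0.0202). Mdm2, which marks p53 for degradation, had 55.4 and 55.3 CPM in controls and 52.6 and 54.97 CPM after irradiation and was not called (-0.04, adjusted p = 0.698). At day 4 it was higher by 1.35 (difference -1.39, adjusted p = 7.21e-04). Bax, a mediator of apoptosis, had 20.6 and 22.6 CPM in controls and 41.002 and 39.5 CPM after irradiation (0.89, SE 0.097, adjusted p = 5.24e-09; 0.59 with both corrections), and Eda2r, a p53-induced death receptor, rose by 1.15. Zmat3, Ccng1 and Plk3 rose by 0.72, 0.61 and 0.92. For Bax the change at day 4 was 0.94.

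Markers of crypt base stem cells were in part lower. Of 23 tested, 5 rose and 10 fell, and with both corrections 3 and 8. The median was -0.10, and 0.03 on the log2(TPM + 1) scale. Lgr5, the receptor that defines these cells, had 572 and 568 CPM in controls and 314 and 307 CPM after irradiation (-0.88, SE 0.04, adjusted p = 1.93e-18). Olfm4, a secreted glycoprotein of the same cells, had 1722 and 1661 CPM in controls and 922 and 879 CPM after irradiation (-0.91, SE 0.04, adjusted p = 6.08e-19). Both irradiated libraries lay below both controls in each. Slc12a2, an ion cotransporter of crypt base cells, fell by 0.42 and was at -0.15 with both corrections, whereas Smoc2 was at -0.10 (adjusted p = 0.0587). Olfm4 had changed by -1.08 at day 4 and Lgr5 by -1.60, with a called difference between the days for Lgr5 (0.72, adjusted p = 0.0162). Wnt targets showed no common direction, with 2 of 14 higher and 1 lower, beside 18.8% and 17.5% of all genes tested. Axin2, the standard feedback target of Wnt signalling, was at -0.03 (adjusted p = 0.633), and Cd44 rose by 0.37.

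Genes of cell division held rises and falls in equal number at day 7. Of 24 mitosis genes 5 rose and 5 fell at day 7, with a median of 0.06, beside 18.8% higher and 17.5% lower over all genes tested. The counts were 0 and 21 at day 4 with a median of -0.81. The falls depended on gene length: with the length correction the counts were 5 and 1, and with both corrections 4 and 0. Mki67, the proliferation marker, has 10059 bases and went from 992 and 991 to 778 and 759.9 CPM (-0.37, adjusted p = 2.15e-09), and with both corrections its change was -0.02 (adjusted p = 0.608). Cenpf, a kinetochore protein with 10336 bases, behaved alike (-0.44 and, corrected, -0.04, adjusted p = 0.605). The short gene Ube2c, the E2 enzyme of the anaphase-promoting complex, with 968 bases, rose by 0.39, and by 0.16 after both corrections. Top2a, which untangles DNA, was at -0.08 (adjusted p = 0.104). Of 24 replication genes 4 rose and 0 fell, and with both corrections 2 and 0. Of 25 repair genes 1 rose and 5 fell, and with both corrections 2 and 1; the median was -0.09, and 0.01 on the log2(TPM + 1) scale. Atm, the kinase that senses double-strand breaks, fell by 0.49 (adjusted p = 7.12e-06) and stayed called with both corrections (-0.29, adjusted p = 0.00386), while the calls of Atr and Brca2 were lost.

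Secretory lineages moved gene by gene. The counts that follow stand beside 18.8% higher and 17.5% lower over all genes tested. Of 17 alpha-defensin genes 9 rose and 3 fell, while the level summed over the list went from 1544 and 1459 CPM in controls to 1329 and 1285 CPM after irradiation. They are near-identical copies and their reads may be shared, so single members and their tally are uncertain, and the fit of all 8 libraries called 0 higher and 0 lower. Of 14 other Paneth cell genes 4 rose and 5 fell. Lyz1, the Paneth cell lysozyme, had 417 and 408 CPM in controls and 317 and 319 CPM after irradiation (-0.37, SE 0.04, adjusted p = 3.57e-09). It had been higher at day 4 by 2.17, and the difference between the days was called (-2.55, adjusted p = 0.0102). Guca2b, uroguanylin, a peptide of the gut lining kept on that list though other epithelial cells can make it, had 11.4 and 13.1 CPM in controls and 71.6 and 78.6 CPM after irradiation (2.60, SE 0.098, adjusted p = 1.17e-20). Of 16 goblet cell genes 4 rose and 5 fell. Muc2, the main secreted mucin, had 186 and 191 CPM in controls and 111 and 119 CPM after irradiation (-0.71, SE 0.05, adjusted p = 1.36e-13). It has 13989 bases, and its change was -0.26 with the length correction, -0.37 with both corrections and not called in the fit of all 8 libraries (adjusted p = 0.106). Fcgbp and Agr2, which are secreted with mucus or needed to fold it, fell by 0.71 and 0.89. Zg16, a lectin of goblet cell granules, went the other way, with 4.81 and 5.197 CPM in controls and 32.7 and 35.97 CPM after irradiation (2.77, SE 0.14, adjusted p = 2.07e-17), as did Clca1, with 21 counts in both controls and 233 after irradiation (ratio 12.3, counting interval 7.88 to 20.3). Mucus genes thus held both falls and rises.

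Of 25 enteroendocrine genes 6 rose and 8 fell, beside 18.8% higher and 17.5% lower over all genes tested. Cck, cholecystokinin, had 10.9 and 8.92 CPM in controls and 19.3 and 20.2 CPM after irradiation (1.00, SE 0.14, adjusted p = 8.24e-07). Pcsk1, the convertase that cuts prohormones, had 16.7 and 18.2 CPM in controls and 9.14 and 9.31 CPM after irradiation (-0.92, SE 0.15, adjusted p = 5.31e-06). Chga, chromogranin A, was at 0.27 (adjusted p = 0.00484), and its adjusted p was 0.584 with both corrections and 0.0901 without irradiated replicate 2. Of 4 tuft cell genes none was called. Pou2f3, the regulator of tuft cells, had 54 counts in both controls and 28 after irradiation (ratio 0.576, counting interval 0.352 to 0.926). Dclk1, another tuft cell marker, had 11 and 6 counts (ratio 0.606, 0.184 to 1.79) and was below the filter.

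For genes of the respiratory chain and of the ribosome the counts of calls moved with the corrections, and their median lengths are 644 and 579 bases. Of 80 nuclear genes of oxidative phosphorylation 59 rose and 0 fell in the main fit. With the length correction 38 rose and 1 fell, and with both corrections 35 and 3. Cox6a1, a subunit of cytochrome c oxidase, had 81.8 and 84.2 CPM in controls and 147 and 142 CPM after irradiation (0.80, SE 0.054, adjusted p = 6.79e-14), and was at 0.52 with both corrections. Atp5b of the ATP synthase was at 0.17, and its call was lost with both corrections (adjusted p = 0.544). The transcripts of the mitochondrial genome went the other way: of 13 tested 6 fell and 0 rose, and with both corrections 6 and 0. The fit of all 8 libraries called 0 lower and 0 higher. Their summed level was 159151 and 162090 CPM in controls and 131908 and 119942 CPM after irradiation. For mt-Nd4, a subunit of complex I, levels were 19996 and 20647 CPM in controls and 14118 and 14219.5 CPM after irradiation (-0.52, SE 0.031, adjusted p = 3.03e-15). Of 82 cytosolic ribosomal protein genes 36 fell and 8 rose in the main fit, 69 and 2 with both corrections, and 4 and 20 on the log2(TPM + 1) scale (19 and 4 with its median set to 0), against 79 and 0 at day 4. Rpl5 had 1424 and 1349 CPM in controls and 1053 and 1103 CPM after irradiation (-0.36, SE 0.04, adjusted p = 7.04e-09), and its fall at day 4 was larger (-0.99, difference 0.62, adjusted p = 0.0157). Rplp0, often used as a reference gene, was at 0.01 in the main fit (adjusted p = 0.796) and at -0.17 with both corrections (adjusted p = 8.51e-05).

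Genes of sterol and fatty acid synthesis were lower. Counts in this paragraph stand beside 18.8% higher and 17.5% lower over all genes tested, and 16.1% and 12.9% with both corrections. The median change of 25 sterol genes was -0.27, with 16 lower and 2 higher, and of 14 genes of fatty acid synthesis 9 fell and 2 rose. Hmgcs1, which makes the precursor of mevalonate, had 589 and 560.3 CPM in controls and 390.2 and 374 CPM after irradiation (-0.59, SE 0.041, adjusted p = 1.31e-13). Lss, lanosterol synthase, fell by 0.63 and the desaturases Scd1 and Scd2 by 0.64 and 0.64. Me1, malic enzyme, rose by 0.74; it belongs to the fatty acid list for the NADPH it makes. Of 23 genes of ATF4, serine and one-carbon metabolism 8 rose and 4 fell, and with both corrections 4 and 6. Stc2, stanniocalcin 2, fell by 1.64. Of 23 genes of endoplasmic reticulum chaperones 1 rose and 8 fell, with a median of -0.07 that was 0.05 on the log2(TPM + 1) scale, and with Hsp90b1 at -0.34 and Herpud1, a part of the degradation machinery, at 0.68.

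Genes of antigen presentation were higher in 7 of the 14 cases tested and lower in 0. B2m, the light chain of class I molecules, had 175 and 164 CPM in controls and 219 and 218 CPM after irradiation (0.37, SE 0.046, adjusted p = 7.33e-08; 0.23 with the length correction). Of 20 interferon-stimulated genes 3 were higher and 2 lower (5 and 1 with both corrections). Over all genes tested 18.8% were higher and 17.5% lower (16.1% and 12.9% with both corrections). The medians were 0.41 for antigen presentation and 0.24 for interferon-stimulated genes, and 0.25 and 0.30 with both corrections; the difference between the lists was not tested. Cxcl16, a chemokine, rose by 1.77, and Duox2, an epithelial oxidase, had 17 counts in both controls and 100 after irradiation (ratio 6.54, counting interval 3.89 to 11.7). Reg1 and Reg3a, secreted lectins of the regenerating gut, rose by 3.72 and 2.39, while Reg3b was at 0.05 (adjusted p = 0.822).

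The title of the series names Ptgs1, a cyclooxygenase. Ptgs1 had 2 counts in both control libraries together and 8 in both irradiated ones (ratio 4.45, counting interval 0.887 to 43.0), too few to show a difference at this depth. Ptgs2, the inducible cyclooxygenase, had 3.89 and 1.67 CPM in controls and 11.96 and 11.5 CPM after irradiation (2.11, SE 0.26, adjusted p = 4.57e-07), after a change of 4.06 at day 4. Of 14 prostaglandin genes tested 10 rose and 0 fell. Hpgd, which degrades prostaglandins, rose by 0.83. Of the 4 reprogramming factors, Pou5f1 had 0 counts in all 4 libraries and Sox2 had 1 count in a control. Klf4 fell by 0.52 (adjusted p = 0.00142) and Myc was at -0.04 (adjusted p = 0.774).

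The largest rises, among calls whose mean level reached 5 CPM, were led by genes with little or no signal in controls. Prl2c2, a placental prolactin (proliferin), had 0 counts in both controls and 215 after irradiation, at least 79.7-fold higher on a floor of 3 counts over the group (the counting interval of the ratio begins at 64.2). Prl2c3, a near-identical gene, had 13 and 361 counts (ratio 30.9, counting interval 17.8 to 58.5), and reads of the pair may be shared. Mup20, a major urinary protein of another family of copies, had 16 and 1004 counts (ratio 69.8, counting interval 42.7 to 123). Reg1 had 2.98 and 1.96 CPM in controls and 33.4 and 30.99 CPM after irradiation (3.72, SE 0.17, adjusted p = 1.93e-18). Slc5a4b, a member of the sodium-glucose transporter family, rose by 3.29 and Serpinb9b, a member of the serpin family, had 28 and 315 counts (ratio 12.5, counting interval 8.49 to 19.1). Ces1g, a carboxylesterase, rose by 2.69.

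The 15 largest falls include P4ha2, Bnip3, P4ha1 and Egln3 of the hypoxia list, and Ak4, Slc16a3, Vldlr and Stc2. Of the others, Grin1, a subunit of the NMDA receptor, had 190 counts in both controls and 7 after irradiation (ratio 0.0410, counting interval 0.0162 to 0.0860). Smtnl2, a smoothelin-like protein, had 208 and 27 counts (ratio 0.144, 0.0929 to 0.216) and Upk3b, a uroplakin, 168 and 26 (ratio 0.172, 0.109 to 0.261). Malat1, a nuclear long non-coding RNA, was the most abundant of them, with 2375 and 2238 CPM in controls and 778 and 746 CPM after irradiation (-1.60, SE 0.041, adjusted p = 3.66e-25). Kcnq1ot1, an imprinted antisense RNA with 93670 bases, had 38.1 and 29.9 CPM in controls and 8.27 and 9.57 CPM after irradiation (-1.93, SE 0.14, adjusted p = 6.18e-12), but with both corrections its change was -0.93 and not called (adjusted p = 0.0651). How strand was treated in the counting is not given in the sources used here, and reads of Kcnq1ot1 and its sense partner may be mixed. Mrpl23, a mitochondrial ribosomal protein, had 21.3 and 12.4 CPM in controls and 4.57 and 5.102 CPM after irradiation (-1.79, SE 0.3, adjusted p = 0.002). Its 2 controls lay apart, and without 1 or the other irradiated library the adjusted p was 0.137 and 0.1003.

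Several non-coding classes held more falls than rises. Of 11616 protein-coding genes 2348 were higher (20.2%) and 2081 lower (17.9%). Of 175 long intergenic RNAs 8 were higher (4.57%) and 36 lower (20.6%), with a median of -0.28. Of 163 provisional transcripts (class TEC) 4 were higher (2.45%) and 32 lower (19.6%), with a median of -0.44. Of 40 unprocessed pseudogenes 0 were higher and 16 lower (40%), with a median of -0.49. With the length correction the lower counts of these non-coding classes were 35, 31 and 16. For long intergenic RNAs and provisional transcripts the share lower was near the 17.5% of all genes tested. Their share higher was below the 18.8% of all genes. Of 540 processed pseudogenes 46 were higher (8.52%) and 53 lower (9.81%). Transcribed processed pseudogenes went the other way, with 12 of 49 higher (24.5%) and 6 lower (12.2%).

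What remained from day 4 can be counted. Of the 4732 genes called at day 7, 1528 (32.3%) were also called at day 4 in the same direction, 939 higher and 589 lower, and they made up 47.3% of the 3228 day 4 calls. The change was smaller at day 7 for 1421 of them (93.0%), with a median absolute log2 fold change of 0.50 at day 7 and 0.96 at day 4. The replicates of day 4 lay further apart, so a change of a given size could pass the test at day 7 and miss it at day 4. Genes called in opposite directions numbered 121, 84 of them higher at day 7. Among the called genes with the largest changes at both days were Prl2c3, Ctse, Anxa10 and Slc5a4b, which rose, and Grin1, Smtnl2, Stc2 and Nrp1, which fell. Nrp1, a coreceptor of semaphorins and VEGF, fell by 1.35 at day 7 and changed by -1.57 at day 4, and Hspg2, perlecan of the basement membrane, fell by 1.37 and changed by -1.37. Hspg2 has 13006 bases, and its day 7 change was -0.95 with the length correction (adjusted p = 7.53e-05). It was not called in the fit of all 8 libraries (adjusted p = 0.056) or on the log2(TPM + 1) scale (-0.49, adjusted p = 0.228).

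**Figure D5:**
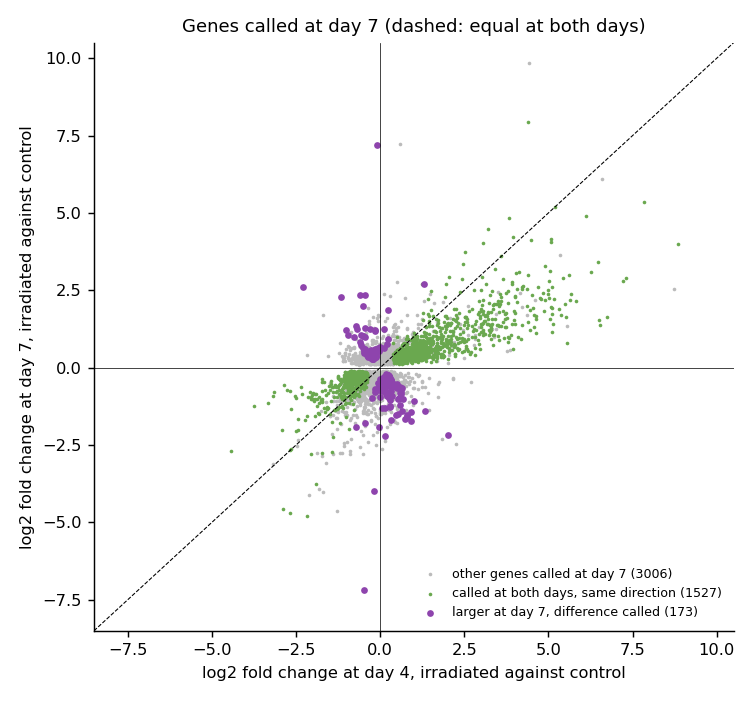
Each point is a gene called at day 7, with its log2 fold change of irradiated over control organoids at day 4 on the x axis and at day 7 on the y axis; the diagonal line marks equal changes. The 1528 genes called at both days in 1 direction lie mostly on the side of the diagonal where the day 7 change is smaller (1421 of them), and the 173 genes with a called larger change at day 7 lie beyond it.

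Fewer genes had a change that was larger at day 7 by a test of the difference itself. There were 173, 69 higher and 104 lower at day 7, of which 63 and 98 had not been called at day 4. With the length correction 45 and 59 of them were still called in this way, and leaving out 1 library at a time gave 21 to 380 genes. Each of the 4 day 7 libraries took the count to between 21 and 32 when left out, control replicate 2 of day 4 to 83 and irradiated replicate 1 of day 4 to 380, so the membership of this group is not stable. Among the rises were the detoxification genes Nqo1, Cbr3, Gsta3 and Ces1g. Others of the 10 largest were Olfr77 (1.27, adjusted p of the difference 0.00179), Wdr89 (1.06, 7.47e-04), Ulk4, Ugt1a7c and Rpl37rt. Of the 69 rises, 2 belonged to the NRF2 list, 2 to the glutathione S-transferases and 3 to the genes of drug metabolism. The nuclear genes of oxidative phosphorylation gave 5, so the rises are not a detoxification group as a whole. With the length correction the difference of Cbr3 was no longer called (adjusted p = 0.053), while those of Nqo1, Gsta3 and Ces1g were. In the fit of all 8 libraries the day 7 change of Cbr3 had an adjusted p of 0.0638. Gsta3 had 34.8 and 30.98 CPM in controls and 77.4 and 79.1 CPM after irradiation (1.25, SE 0.077, adjusted p = 5.76e-15), after 0.11 at day 4 (difference 1.14, adjusted p = 0.0202). Mxd3, a MYC network repressor, rose by 1.06 (adjusted p = 0.119 without irradiated replicate 1 of day 7) after a fall of day 4 (-0.94, adjusted p = 0.0497). Among the falls, Malat1 turned from 0.81 at day 4, with 1877 and 1593 CPM in controls and 2631 and 3452 CPM after irradiation, to -1.60 at day 7 (difference -2.41, adjusted p = 2.53e-04). Plod2, a lysyl hydroxylase of collagen and a HIF target, was at 0.29 at day 4 (adjusted p = 0.285) and -1.28 at day 7 (adjusted p = 2.31e-05). Pclo and Map1b, long transcripts best known from neurons, fell by 1.40 and 0.96, and with the length correction Map1b had an adjusted p of 0.0523. Pclo was at -1.01 with that correction (adjusted p = 4.64e-04), and at -0.59 and not called on the log2(TPM + 1) scale (adjusted p = 0.212).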

How the data were processed

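RNA was measured in 8 libraries of organoids, 2 in each of 4 groups by treatment and day, and groups were taken from the labels. The libraries were made from poly-A selected RNA with a directional kit, per the labels' protocols. Per the file headers, one deposited table holds expected counts (RSEM estimates, which share reads between genes) and another deposited table holds TPM (scaled for length and library size). STAR 2.7.3a, RSEM 1.3.3, FastQC and Trim Galore are named, with builds GRCm39 and mm10, per the submitters' processing notes. Strand setting and annotation release were not given in the sources used here. Of 55416 gene IDs, 52083 matched a symbol in GENCODE M21.

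Expected counts were rounded, which changed 11.0% of the values of day 7. Genes were kept by filterByExpr (minimum count 10, minimum total 15) and tested with the quasi-likelihood F-test of edgeR 4.0.16 (TMM, robust) in R 4.3.3, on the 4 libraries of a day or, for the difference between days, on all 8. Two-sided P-values were adjusted over all genes tested (Benjamini-Hochberg), and every adjusted p comes from edgeR unless TPM is named, where limma 3.58.1 was used. Gene length came from the ratio of count to TPM. Length and GC trends were removed per library with a smoothed curve (lowess, span 0.3). Alternatives were DESeq2 1.42.0 or its size factors, limma-voom, limma on log2 TPM with pseudocounts of 1 and 0.1, other filters, no robust fitting, a replicate block, no mitochondrial genes, and leaving out each library. The length and GC correction and the centring of TPM were chosen after seeing the data. Ratios of few counts carry exact intervals at 95% confidence and, against 0 counts, a floor of 3 for the group total, which cover counting error only. The fits were tested on simulated data.

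Named genes are the 15 largest rises and falls at day 7 and the 10 largest in each direction at both days or larger at day 7, given a mean level of 5 CPM or more and groups that do not overlap. Added are up to 4 called members of each list by p, up to 2 others by level, and a short set of fixed genes. The comparison, the lists and the named genes were chosen with earlier results of these data known.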

Additional observations from a re-analysis of the deposited data

Results flagged for a closer look

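The irradiation effect differed between the days for 1422 of the 14063 genes tested with an interaction term (10.1%), and this difference is the reason for each gene that follows. Leaving out 1 library at a time gave 244 to 2718 such genes, with 244 to 270 when a day 7 library was left out, so a single gene's difference is less firm than its day 7 change. The values below are the day 7 log2 fold change minus that of day 4. A negative value means a smaller rise or a larger fall at day 7.

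Genes of enterocytes and their enzymes changed less at day 7. The differences were -2.55 for Apoa1, -1.70 for Fabp2, -2.61 for Mme, -2.51 for Slc15a1, -2.24 for Alpi, -2.18 for Creb3l3, -1.86 for Rbp2, -1.23 for Aldh1a1 and -1.09 for Krt20. Among detoxification and prostaglandin genes they were -1.84 for Cyp3a13, -1.83 for Gsta1, -0.77 for Ephx1 and -1.68 for Hpgd. Among p53 targets they were -1.39 for Mdm2, -1.12 for Cdkn1a, -1.01 for Eda2r and -0.95 for Ccng1. Ly6a had -3.49, Cd44 -0.85, Cldn4 -0.95, Ret -1.45, Guca2b -1.61 and Lyz1 -2.55.

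For genes that were lower at day 4 the difference was above 0. It was 0.72 for Lgr5, 0.78 for Mki67, 0.79 for Top2a, 0.60 for Cenpf, 1.08 for Ube2c, 0.62 for Rpl5, 0.70 for Rplp0, 0.75 for Scd2, 0.56 for Tkt and 1.99 for Mxd3. Tkt missed the threshold at day 4.

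Changes larger at day 7 included 1.38 for Ces1g, 1.36 for Nqo1, 1.14 for Gsta3 and 1.93 for Cbr3 among rises. Among falls they were -2.41 for Malat1, -1.89 for Kcnq1ot1, -2.07 for Pclo, -1.58 for Plod2, -1.36 for Mrpl23, -1.24 for Map1b and -1.13 for Pcsk1. With the length correction the differences of Cbr3 and Map1b were not called (adjusted p = 0.053 and 0.0928). The transcript mt-Nd4 had a difference of -1.22, between 0.69 at day 4, which missed the threshold, and -0.52 at day 7.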

How the results depend on the processing

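The 4732 day 7 calls became 2069 with DESeq2, 1216 in 1 fit of all 8 libraries, 647 with a 2-fold minimum, 2307 on log2(TPM + 1), 2238 on log2(TPM + 0.1), 1009 without a filter on TPM and 1529 on centred TPM. Leaving out each library gave 3709 to 4063. The 3228 day 4 calls became 284 on unfiltered TPM, 1991 on centred TPM and 5130 with all 8 libraries, and 1284 to 3198 without 1 library. The 1422 differences between days became 2456 without a filter, 308 and 338 on the TPM scales, 4 on unfiltered TPM and 679 on centred TPM, and 244 to 2718 without 1 library. The 1528 genes called at both days in 1 direction became 941 with DESeq2, 622 and 606 on the TPM scales, 145 on unfiltered TPM, 552 on centred TPM and 791 with all 8 libraries, and 795 to 1524 without 1 library (923 without control replicate 1 of day 4). The 173 genes larger at day 7 became 368 without a filter, 104 with DESeq2, 35 and 42 on the TPM scales, 0 on unfiltered TPM, 66 on centred TPM, 109 with the length correction and 101 with length and GC, and 21 to 380 without 1 library. The longest of 5 bins of genes held 31.9 percentage points more lower calls than the shortest, and 2.37 with the length correction, 1.26 with length and GC, 15.8 with DESeq2 and 9.57 with all 8 libraries. Apart from the corrections, whose construction removes the trends, and the smaller sets of genes or samples, the cause was not tested.

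The median of a list changed sign in some settings. On log2(TPM + 1), log2(TPM + 0.1) and unfiltered TPM it was 0.0266, 0.0268 and 0.0266 for stem cell markers, 0.00554, 0.00576 and 0.00554 for repair genes, 0.0455, 0.0471 and 0.0455 for chaperones, 0.0656, 0.0657 and 0.0656 for ribosomal protein genes and 0.118, 0.121 and 0.113 for Wnt targets. For Wnt targets it was 0.0794 with the length correction and replicate block and -0.0411 to 0.0915 without 1 library. It was -0.0733 for ATF4 genes with length and GC and -0.129 for interferon-stimulated genes with the stricter filter. Brca2 turned to 0.32, 0.35 and 0.32 on these TPM scales (adjusted p = 0.301, 0.305 and 0.506) and 0.19 on centred TPM (adjusted p = 0.553), Rplp0 to -0.12 with the length correction, with and without the block, and -0.17 with length and GC, and Top2a to 0.10 with length and GC.

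Replicate numbers are shared by the groups, but with 2 pairs they do not show a pairing: the correlation of the deviations of same-numbered libraries was -0.0225 at day 7 and 0.143 at day 4, over 10499 genes. With the replicate number as a block there were 4856 calls at day 7, 3541 at day 4, 1443 differences between days, and, with the length correction as well, 99 genes larger at day 7.

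Of 132 of the genes named, 69 kept their direction and side of the threshold in all 20 alternatives. The fit of all 8 libraries ended the calls of 37, among them Bnip3, P4ha1, Clu, Anxa1, Muc2 and Cyp3a11. The length correction ended 5 and DESeq2 4. With 2 libraries a group the spread is poorly known, and genes with few counts have wide intervals.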
